A study of Mus musculus with 6 samples.

Results

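The 38 genes described here encode enzymes, cofactors and membrane proteins of the lysosome, the acidic organelle in which cells break down proteins, sugar chains and lipids. They were chosen by symbol, and each was found as 1 row among the 54532 genes of the table of hippocampal RNA levels. The table holds 6 libraries, from 3 wild-type (WT) mice and 3 mice labelled TG, named by group and replicate number (WT1, WT2, WT3, TG1, TG2 and TG3). Both groups were on the C57BL/6N background, and received no treatment that the sources name. By the paper's methods, edited founders were mated with C57BL/6 mice, and the WT controls were littermates. In TG mice Slc1a2 has both the G82R and the L85P change. It is the gene of the astrocytic glutamate transporter GLT-1, and the changes were placed in the gene itself with CRISPR/Cas9, so that no added promoter drives it. The WT mice carry neither change. The Y-linked genes Ddx3y, Eif2s3y, Kdm5d and Uty were above 0 in every library and Xist had 6 reads at most, as in male mice. The age of the sequenced mice, the number of founder lines and whether the changes were on 1 or both copies are not given in the sources used here. The unit is FPKM, read counts scaled to gene length and sequencing depth, so levels of different genes can be compared per length. The comparison asks whether the lysosomal genes differ in level between TG and WT hippocampus.

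Lysosomal hydrolases are made in the endoplasmic reticulum, receive mannose 6-phosphate tags in the Golgi and are delivered by receptors to a compartment that a proton pump, the vacuolar ATPase, keeps acidic. Membrane glycoproteins line this compartment, and transporters and channels move cholesterol, ions and breakdown products out of it. Many lysosomal genes are switched on together by the transcription factor TFEB and its relatives, which bind a palindromic DNA sequence near their start sites. In brain, neurons depend on this system because they do not divide, and inherited loss of single members causes storage diseases of the nervous system, while microglia, the phagocytes of the brain, express several cathepsins at high levels.

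The core of the TFEB motif, TCACGTGA, reads the same on both strands and was searched in RefSeq promoter sequences (GRCm38.p6), each 300 bases long, from 250 bases before to 50 bases after the annotated start. Of the 38 genes, 32 had a promoter sequence, and 7 of these (21.9%) held the core: Atp6v0d1, Atp6v1a, Cln3, Ctsa, Ctsd, Gla and Mcoln1. Among all 27025 genes with a promoter sequence, 304 (1.12%) held it, and among 17492 protein-coding genes 246 (1.41%). Of 106 other lysosomal genes, a list described below, 85 had a promoter sequence and 7 of these (8.24%) held the core. By window, the core was in 7 of 35 windows of the lysosomal genes (20.0%) and in 320 of 32851 windows in all (0.974%). The shorter E-box CACGTG, which lies inside the core and also reads the same on both strands, was in 12 of the 32 genes (37.5%) and in 2187 of all genes (8.09%). Of the 85 other lysosomal genes, 21 (24.7%) had the E-box. A match is a description of the letters and does not show that a factor binds there. The sites are printed with 11 bases on either side, 5′ to 3′ on the strand of the gene, with the core in capitals, because the core was found in a larger share of these promoters than of all promoters.
Atp6v0d1, chr8:105566050-105566079, minus strand: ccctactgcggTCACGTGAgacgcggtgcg
Atp6v1a, chr16:44139373-44139402, minus strand: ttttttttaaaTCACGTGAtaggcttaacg
Cln3, chr7:126583340-126583369, minus strand: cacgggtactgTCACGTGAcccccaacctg
Ctsa, first site, chr2:164833749-164833778, plus strand: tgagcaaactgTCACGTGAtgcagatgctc
Ctsa, second site, chr2:164833766-164833795, plus strand: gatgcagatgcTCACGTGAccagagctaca
Ctsd, chr7:142387908-142387937, minus strand: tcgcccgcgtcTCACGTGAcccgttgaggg
Gla, first site, chrX:134601215-134601244, minus strand: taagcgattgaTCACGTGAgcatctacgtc
Gla, second site, chrX:134601182-134601211, minus strand: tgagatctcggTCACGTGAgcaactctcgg
Mcoln1, chr8:3500462-3500491, plus strand: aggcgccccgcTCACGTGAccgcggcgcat
Counted from the annotated start, the core begins 99 bases before it in Ctsd, 46 bases before it in Mcoln1 and 13 bases before it at the first site of Ctsa. The farthest site is the first of Gla, 228 bases before the start, and the second site of Ctsa lies 4 bases after it.

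The reads on genes lay between 16081281 and 18751057 per library, and 3 reads on a gene of 1 kb correspond to an FPKM of 0.160 to 0.190. Every lysosomal gene was far above this, with between 146 and 32153 reads in a library, so all 38 entered the test. Slc1a2, the changed gene, had 202, 199.5 and 177 FPKM in libraries WT1 to WT3, against 222, 207 and 217 FPKM in libraries TG1 to TG3, and FPKM do not show which bases the reads carry. Markers of hippocampal principal cells, neurons, astrocytes and oligodendrocytes were above 0 in every library, as the tissue label has it. The summed FPKM of 12 choroid plexus markers came to 83.0, 58.2 and 73.4 for WT1, WT2 and WT3, but to 1221, 3858 and 66.6 for TG1, TG2 and TG3, so TG1 and TG2 stand apart from the other 4 libraries. The choroid plexus is the secretory epithelium of the brain ventricles. A fit with these markers as a covariate cannot separate them from anything else that sets TG1 and TG2 apart. Their part in the differences below was not tested further. The summed FPKM of 12 microglia markers came to 192, 180.4 and 201 for WT, against 168, 224 and 215 for TG, all 12 being above 0 in every library. Because these are bulk samples, fewer cells of a type and less RNA per cell cannot be told apart. The labels name the samples as separate mice, and no library was a copy of another.

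Levels covered a wide range. Psap, the precursor of the saposins that help sphingolipid hydrolases reach their substrates, had a mean FPKM of 588 over the 6 libraries, above 99.9% of the 20952 genes tested, and made up 31.0% of the summed FPKM of the 38 genes. Psap was above the next gene in every library. Next came Atp6v1b2 and Atp6v1a, subunits of the vacuolar ATPase, with means of 137 and 123.3, then Laptm4a at 118, Atp6v0d1 at 113 and Atp6ap1 at 101.4. Atp6v1b2 was above Atp6v1a in 6 of 6 libraries and Atp6v0d1 above Atp6ap1 in 6 of 6, although their ranges over the libraries overlapped. Atp6v1a was above Laptm4a in 3 of 6 libraries and Laptm4a above Atp6v0d1 in 4 of 6, so the order of these 3 is not resolved. The best represented proteases were Ctsd and Ctsb, with means of 86.6 and 83.6. At the low end were Ctsh, Galc, Cln3 and Manba, with means of 2.56, 2.04, 1.86 and 1.70, and even Manba lay above 44.1% of the genes tested. The coefficient of variation within WT libraries had a median of 6.82% over the 38 genes, against 8.13% within TG libraries, and 25 of the 38 had the larger standard deviation in TG.

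**Figure D1:**
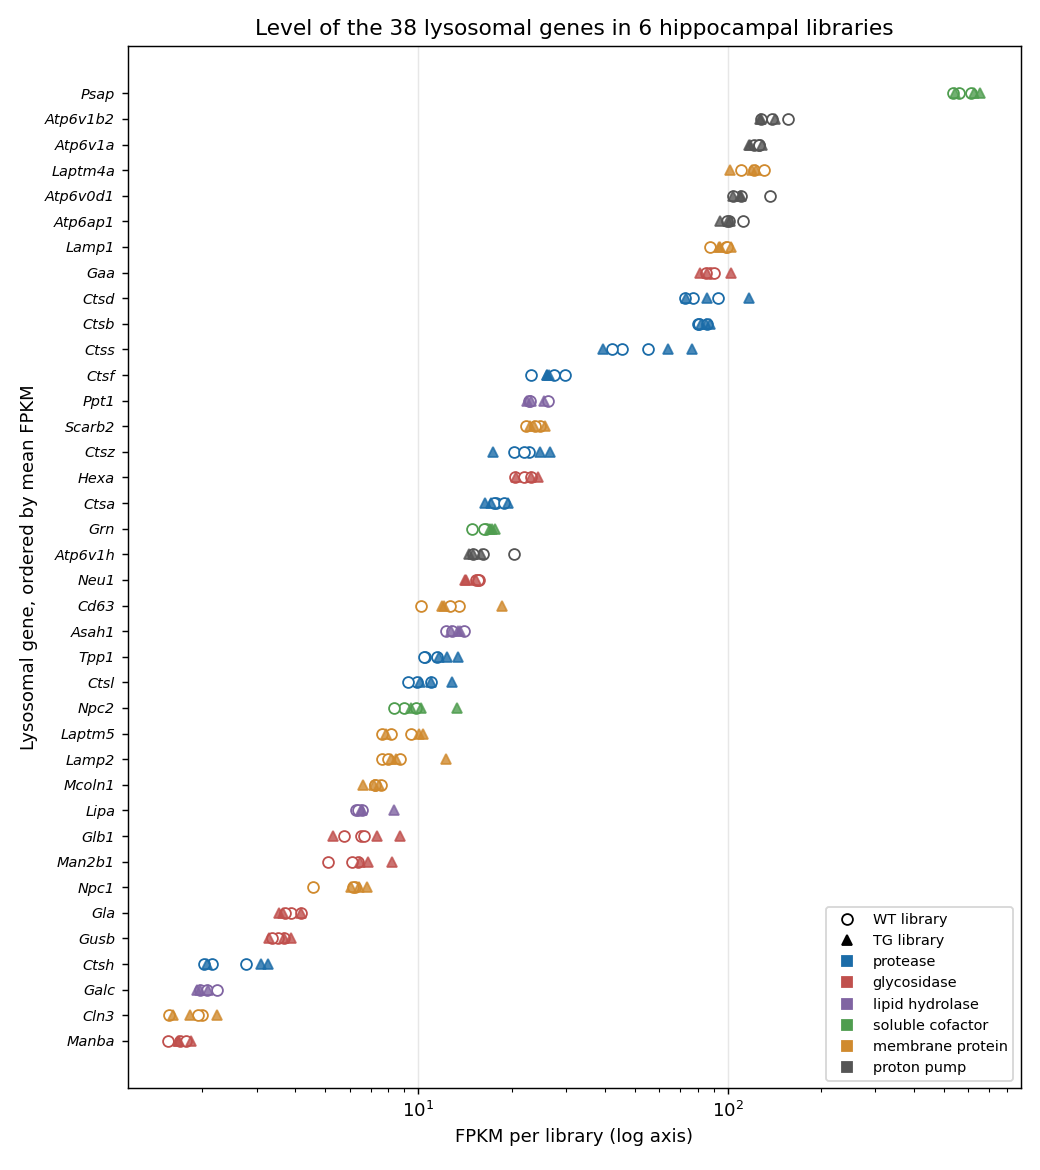
FPKM of each of the 38 lysosomal genes in each library on a log axis, ordered by the mean over 6 libraries. Open circles are the 3 WT libraries, triangles the 3 TG libraries and colours the 6 roles. Psap stands alone at the top with a mean of 588, and for most genes the WT and TG symbols interleave.

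Between TG and WT, none of the 38 genes differed at an adjusted p under 0.05 (limma on log2(FPKM + 0.1), Benjamini-Hochberg over all 20952 genes tested), and the smallest adjusted p among them was 0.786. Of all genes tested, 2 did, which is 0.00955% of the genes tested. At an unadjusted p under 0.05, 1 of the 38 was higher in TG and 0 were lower, where 3.13% of all genes tested were higher and 2.78% lower. With voom on the recovered reads none passed after adjustment either, and 2 were higher at an unadjusted p under 0.05, as were 3.96% of all genes tested. With limma on log2 FPKM, 6 were higher when TG1 was left out, as were 2.52% of all genes tested. The count was 0 without WT2, WT3 or TG2, where the shares of all genes were 2.93%, 2.14% and 2.16%. For 3 of the 38 (Tpp1, Man2b1 and Grn) the lowest TG value exceeded the highest WT value, as in 6.35% of all genes tested, and for 1 (Neu1) the highest TG value was under the lowest WT value, as in 5.71% of all genes tested. In the other 34 the groups overlapped. The log2 fold changes of the 38 ran from -0.17 for Atp6v1h to 0.29 for Man2b1, with a median of 0.04, while the median of all genes tested was -0.0020. They were positive for 25 and negative for 13. The difference between the group means was smaller than the larger of the 2 standard deviations in 34 of the 38.

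The 95% confidence intervals show what sizes of change these libraries leave possible. In 29 of the 38 the whole interval lay between -0.5 and 0.5 on the log2 scale. The widest were those of Ctss, from -0.26 to 0.84, and Ctsh, from -0.22 to 0.73, and the lowest bound of all was -0.44 for Atp6v1h. An adjusted p above the threshold does not show that the levels are equal in the groups.

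**Figure D2:**
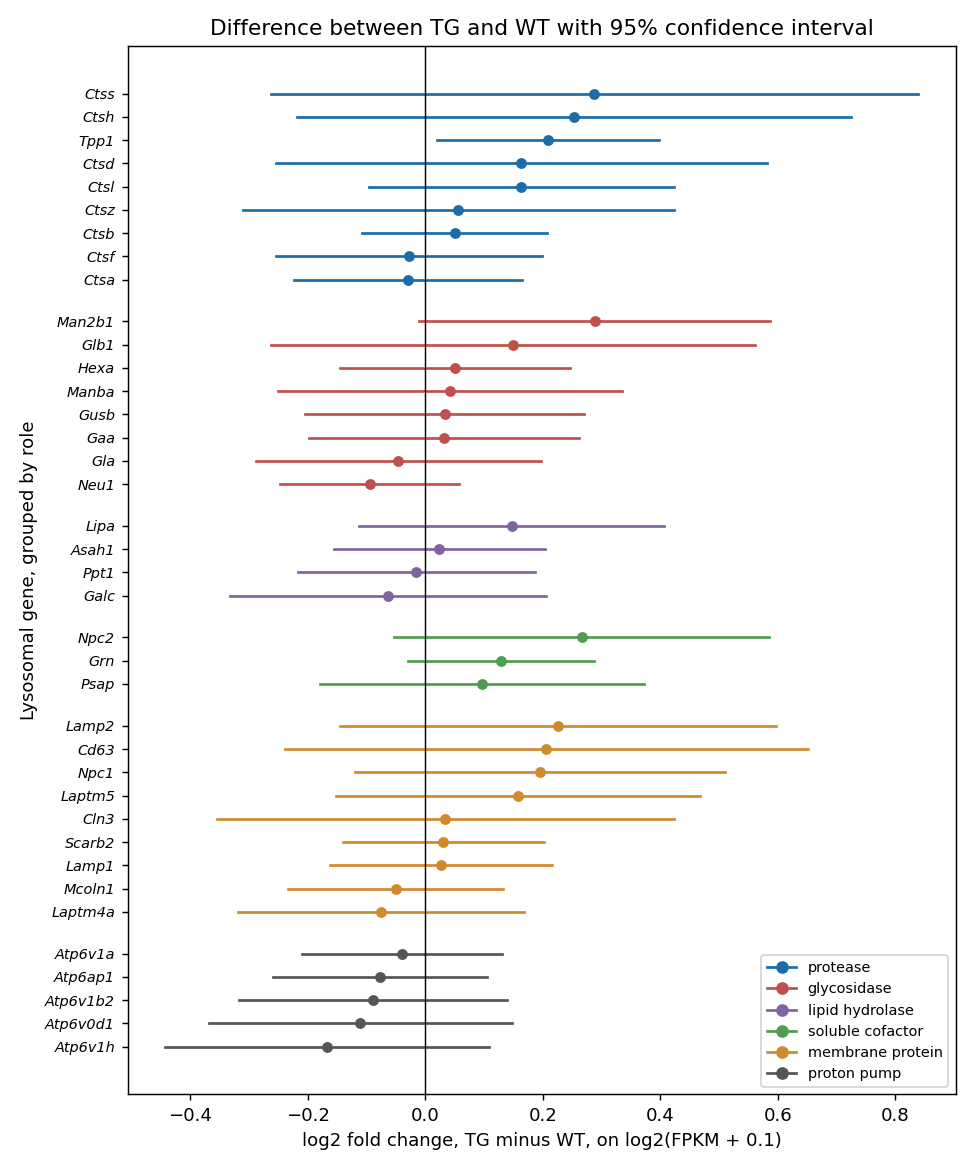
Log2 fold change of TG over WT on log2(FPKM + 0.1) for the 38 genes, grouped by role, with points for the estimate and bars for the 95% confidence interval from 3 libraries per group. The interval of Tpp1 (0.02 to 0.40) is the one that does not include 0, and the 5 proton pump genes have negative estimates.

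The 9 proteases had a median log2 fold change of 0.16, with 7 positive and 2 negative. Without TG2 their median was 0.03, with 5 positive and 4 negative, and with the choroid plexus markers as a covariate it was 0.04. Tpp1 encodes tripeptidyl peptidase 1, a serine protease whose loss causes a form of Batten disease. Tpp1 (ENSMUSG00000030894, on chromosome 7 between 105744811 and 105752235, GRCm38) had 11.4, 10.5 and 10.4 FPKM in libraries WT1 to WT3, against 11.7, 13.4 and 12.4 FPKM in libraries TG1 to TG3. The TG values lay all above the WT values, with TG1 only a little above WT1. The means were 10.8 ± 0.570 (SD, n = 3) and 12.5 ± 0.871 (SD, n = 3), a log2 fold change of 0.21 with a standard error of 0.0807 (limma, unadjusted p = 0.0348, adjusted p = 0.786). Without TG2 the log2 fold change of Tpp1 was 0.16 (limma, unadjusted p = 0.102), and without WT2, WT3 or TG3 its unadjusted p was 0.0810, 0.0722 and 0.0699.

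Ctss encodes cathepsin S, a cysteine protease that microglia express strongly. Its FPKM came to 45.6, 42.3 and 55.3 for WT, against 39.5, 76.5 and 64.2 for TG. TG1 was the lowest of all 6 libraries and TG2 and TG3 were the highest, so the groups overlapped, and the log2 fold change was 0.29 (95% confidence interval -0.26 to 0.84). Ctsz, a cysteine carboxypeptidase, had an FPKM of 22.8, 20.4 and 22.0 in WT and of 17.4, 26.7 and 24.8 in TG. It showed the same order of TG libraries as Ctss, with TG1 lowest and TG2 and TG3 above all WT libraries. Ctsh, an aminopeptidase, had 2.78, 2.15 and 2.03 in WT and 2.08, 3.09 and 3.26 in TG, where TG1 was within the WT range and TG2 and TG3 were above it. The summed microglia markers had TG1 lowest and TG2 and TG3 highest as well (168, 224 and 215, against 180.4 to 201 in WT). Of the 12 single markers, only Tmem119, C1qa and C1qc did. Csf1r was 20.1 in TG1, above its WT range of 18.9 to 19.9. Fcrls went the other way, with 9.23, 7.41 and 6.52 in TG against 8.64 to 9.06 in WT. The part of the microglia markers in these differences was not tested beyond a fit with them as a covariate. In that fit the log2 fold changes were 0.22 for Ctss, 0.0087 for Ctsz and 0.20 for Ctsh, against 0.29, 0.06 and 0.25 without the covariate. Leaving out TG1 gave Ctss a log2 fold change of 0.56 (limma, unadjusted p = 0.0114) and Ctsz one of 0.24 (unadjusted p = 0.0226). Leaving out TG2 gave 0.09 for Ctss (limma, unadjusted p = 0.724) and -0.06 for Ctsz (unadjusted p = 0.705), so both estimates rested on which TG library was left out.

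Ctsd encodes cathepsin D, the main aspartic protease of lysosomes, and has the TFEB core in its promoter. The FPKM of Ctsd came to 77.3, 73.0 and 93.0 for libraries WT1 to WT3, against 85.9, 117 and 73.2 for libraries TG1 to TG3. Only TG2 was above the WT range, and the log2 fold change of 0.16 turned to -0.14 when TG3 alone stood for the TG group. Of the 50-base stretches of Ctsd transcripts 32.4% also occur in transcripts of Gm49369, the largest such share among the 38 genes. Gm49369 overlaps Ctsd on the same strand and is listed at 0 in all 6 libraries, so the level of Ctsd, and with it its place among the proteases, is uncertain to that extent. Ctsl, a cysteine endopeptidase, had 9.92, 9.24 and 10.96 in WT and 10.9, 12.8 and 10.1 in TG, again with only TG2 above the WT range. Ctsb, another cysteine cathepsin, varied little, with 80.0, 80.7 and 85.8 in WT and 82.0, 87.8 and 85.4 in TG, and its interval ran from -0.11 to 0.21. The 2 proteases with negative estimates were Ctsa, the carboxypeptidase that protects the enzymes encoded by Glb1 and Neu1, and Ctsf, a cysteine cathepsin. Ctsa had 17.8, 17.6 and 18.9 in WT and 16.5, 19.5 and 17.2 in TG. Ctsf had 27.5, 23.2 and 29.7 in WT and 26.1, 26.0 and 26.4 in TG, so its 3 TG values lay inside the WT range.

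The 8 glycosidases, which remove sugars from glycoproteins, glycolipids and glycogen, had a median log2 fold change of 0.04, with 6 positive and 2 negative. Man2b1 encodes the acid alpha-mannosidase. Man2b1 (ENSMUSG00000005142, chromosome 8, 85083270 to 85098282) had an FPKM of 6.39, 6.10 and 5.08 in WT and of 6.85, 8.24 and 6.46 in TG. The groups did not overlap, though TG3 exceeded WT1 by little, and the means were 5.86 ± 0.685 (SD, n = 3) and 7.18 ± 0.938 (SD, n = 3). The log2 fold change was 0.29 with a standard error of 0.127 (limma, unadjusted p = 0.0561, adjusted p = 0.786). With the choroid plexus markers as a covariate the log2 fold change was 0.09.

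Neu1 encodes the sialidase that trims terminal sialic acid. Neu1 (ENSMUSG00000007038, chromosome 17, 34931253 to 34935953) had an FPKM of 15.4, 15.7 and 15.6 in WT and 14.3, 14.2 and 15.3 in TG. It was the 1 gene of the 38 with every TG library below every WT library, by a narrow gap between WT1 and TG3. Its log2 fold change was -0.09 with a 95% confidence interval from -0.25 to 0.06, and under quantile normalization its groups overlapped. The spread of the 3 WT values, a coefficient of variation of 1.1%, was smaller than counting reads alone gives at this depth (3.18%).

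Glb1, the acid beta-galactosidase, had 6.51, 5.74 and 6.66 in WT and 7.37, 8.72 and 5.30 in TG. TG1 and TG2 were above every WT library and TG3 was below every WT library. TG1 and TG2 are the libraries with high choroid plexus markers. The log2 fold change was 0.15 with all libraries and -0.24 with the choroid plexus markers as a covariate. It was also -0.24 with TG3 alone for the TG group, so the covariate fit adds little to TG3 alone here. Gaa, the acid alpha-glucosidase that degrades glycogen, had 87.4, 90.2 and 85.0 in WT and 103, 85.5 and 81.6 in TG, with TG1 highest. Hexa, the alpha subunit of beta-hexosaminidase, had 20.6, 22.0 and 23.1 in WT and 20.7, 24.3 and 23.1 in TG. These 2 genes had estimates of 0.03 and 0.05 and intervals that reached no farther than 0.26 from 0. Gla, the alpha-galactosidase whose promoter has both TFEB sites printed above, had 3.86, 3.72 and 4.17 in WT and 3.66, 4.19 and 3.54 in TG. Gusb, the beta-glucuronidase, had 3.67, 3.53 and 3.37 in WT and 3.29, 3.67 and 3.88 in TG. Manba, the beta-mannosidase, had 1.70, 1.55 and 1.78 in WT and 1.84, 1.68 and 1.67 in TG. In each of these 3 the groups overlapped and the estimates lay between -0.05 and 0.04.

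The 4 lipid hydrolases had a median log2 fold change of 0.0045, with 2 positive and 2 negative. Lipa, the acid lipase that frees cholesterol and fatty acids, had 6.56, 6.28 and 6.39 in WT and 6.56, 8.36 and 6.55 in TG. TG2 alone was above the WT range, and the log2 fold change of 0.15 was 0.03 without it. Asah1, the acid ceramidase, had 12.3, 12.9 and 14.0 in WT and 12.7, 13.7 and 13.4 in TG, all 3 TG values within the WT range. Ppt1, the thioesterase that removes palmitate from proteins, had 22.8, 22.9 and 26.3 in WT and 22.4, 25.5 and 23.2 in TG. Galc, the galactosylceramidase that degrades a main lipid of myelin, had 1.97, 2.07 and 2.23 in WT and 1.97, 2.10 and 1.92 in TG. The last 2 had estimates of -0.01 and -0.06. The 10 markers of mature oligodendrocytes, the cells that make myelin, had a summed FPKM of 909, 865 and 731 in WT and 563, 773 and 834 in TG.

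All 3 soluble cofactors had positive estimates, with a median of 0.13. Grn encodes progranulin, a secreted precursor of lysosomal granulins. Grn (ENSMUSG00000034708, chromosome 11, 102430315 to 102437048) had an FPKM of 16.5, 15.0 and 16.3 in WT and 17.1, 17.4 and 17.7 in TG, with the 3 TG values above every WT value. The spread of the 3 TG values, a coefficient of variation of 1.81%, was smaller than counting reads alone gives at this depth (3.14%). Its means were 15.9 ± 0.833 (SD, n = 3) and 17.4 ± 0.314 (SD, n = 3), a log2 fold change of 0.13 (limma, unadjusted p = 0.0958, adjusted p = 0.789). Grn had a positive estimate under all 18 alternatives, between 0.09 and 0.16. Npc2, the soluble protein that hands cholesterol to Npc1, had 8.99, 8.33 and 9.81 in WT and 9.46, 13.3 and 10.2 in TG. TG2 was the highest by far, TG3 slightly above WT3 and TG1 within the WT range, and the estimate was 0.27 (95% confidence interval -0.05 to 0.59). Psap had 558, 535 and 610.0 in WT and 626, 654 and 545 in TG. TG2 and TG1 were the 2 highest libraries for Psap and TG3 was within the WT range, and the estimate of 0.10 became -0.04 with the choroid plexus markers as a covariate.

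The 9 membrane proteins had a median log2 fold change of 0.03, with 7 positive and 2 negative, and in none did the groups lie apart. The 2 main glycoproteins of the lysosomal membrane differed from each other in pattern. Lamp1 had 98.4, 87.3 and 99.5 in WT and 93.8, 102 and 94.4 in TG, an estimate of 0.03. Lamp2 had 8.69, 7.64 and 8.002 in WT and 8.49, 12.3 and 8.16 in TG, so that TG2 alone was above the WT range. The tetraspanin Cd63 had the same shape, with 13.5, 10.2 and 12.7 in WT and 11.9, 18.6 and 12.1 in TG. Lamp2 and Cd63 had estimates of 0.23 and 0.21, which became -0.07 and -0.10 with the choroid plexus markers as a covariate. Of the 50-base stretches of Cd63 transcripts 11% also occur in transcripts of other genes, a processed pseudogene among them, so its level is uncertain to that extent.

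Laptm5, a transmembrane protein of blood-derived cells and microglia, had 9.45, 8.16 and 7.61 in WT and 7.84, 10.4 and 10.1 in TG. TG2 and TG3 were above the WT range and TG1 within it, as for Ctsh. Its relative Laptm4a had 121, 111 and 131 in WT and 102, 124 and 119.6 in TG, with TG1 lowest and an estimate of -0.07. Npc1, the membrane cholesterol transporter, had 6.26, 6.15 and 4.55 in WT and 6.07, 6.40 and 6.80 in TG. Here WT3 stood below the other 5 libraries, and without it the estimate went from 0.20 to 0.05. Mcoln1, a calcium channel of the lysosome, had 7.22, 7.57 and 7.25 in WT and 7.18, 7.47 and 6.64 in TG, with an estimate of -0.05. Scarb2, the receptor that carries glucocerebrosidase to lysosomes, had 24.7, 22.3 and 23.8 in WT and 23.0, 23.6 and 25.6 in TG. Cln3, a membrane protein lost in juvenile Batten disease, had 1.99, 1.56 and 1.94 in WT and 1.61, 2.23 and 1.82 in TG. The estimates of Scarb2 and Cln3 were both 0.03, and the interval of Cln3, a gene with 146 to 231 reads in a library, ran from -0.35 to 0.42.

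The 5 subunits of the proton pump were the 1 role with no positive estimate, with a median log2 fold change of -0.09, and none passed the test. Atp6v1h, a regulatory subunit of the cytosolic V1 sector, had an FPKM of 16.1, 15.0 and 20.4 in WT and 16.0, 15.0 and 14.5 in TG. WT3 stood above the other 5 libraries, which lay between 14.5 and 16.1, and the log2 fold change was -0.17 with all libraries and -0.04 without WT3. Atp6v0d1, of the membrane sector V0, had 111, 104 and 137 in WT and 109.5, 104 and 110.5 in TG, with the same high value in WT3. Atp6v1b2, an ATP-binding subunit, had 139, 128 and 157 in WT and 142, 127 and 129 in TG. Atp6ap1, an accessory subunit, had 100.7, 99.7 and 112 in WT and 102, 99.9 and 94.1 in TG. WT3 was the highest library for these 4 genes, as it was for 25.1% of all genes tested. WT3 also had the largest summed FPKM over all genes, 295610 against 271491 to 276343 in the other libraries. Atp6v1a, the catalytic subunit, had 122, 127 and 126 in WT and 129, 118 and 117 in TG, with TG1 highest. Without WT3 the median of the 5 was -0.02, with 1 positive and 4 negative, and under quantile normalization it was also -0.02, with Atp6v1a positive. Under the other alternatives all 5 were negative, with medians from -0.16 without WT2 to -0.05 with equal summed FPKM.

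**Figure D3:**
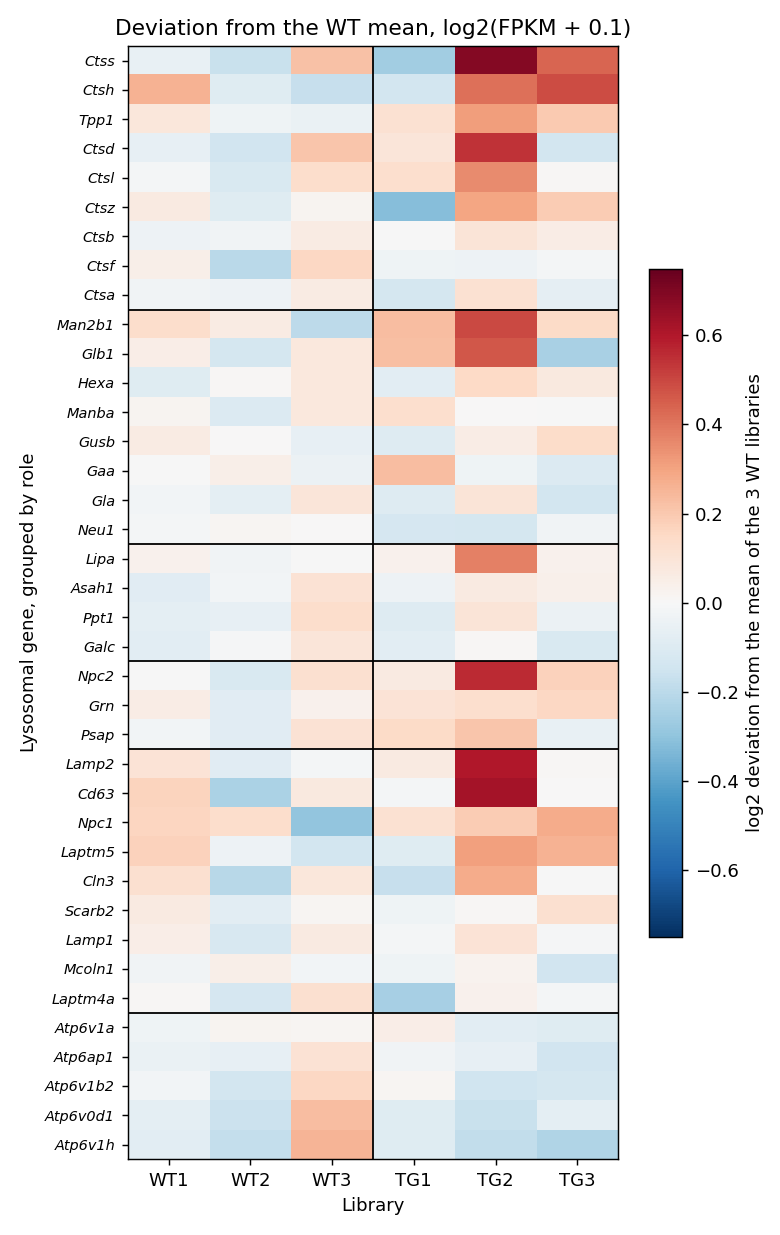
Deviation of each gene in each library from the mean of the 3 WT libraries on log2(FPKM + 0.1), red above and blue below, with genes grouped by role and a vertical line between WT and TG. TG2 holds the most red cells, and in the proton pump rows at the bottom WT3 is the reddest library for 4 of 5 genes.

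Read across all 38 genes, high values gathered in TG2 and low values in WT2. TG2 held the highest value for 19 of the 38 genes (50%), where it did so for 15.7% of all genes tested. WT3 held it for 9 (23.7%), close to the 25.1% of all genes tested. TG3 held it for 5, TG1 for 3, WT2 for 2 and WT1 for 0. WT2 held the lowest value for 13 (34.2%), against 15.1% of all genes tested. The median deviation of the 38 genes from their WT mean was 0.11 in TG2 and 0.08 in WT3, against -0.03 in TG1, -0.0036 in TG3, -0.0033 in WT1 and -0.08 in WT2. The number of genes above their WT mean was 30 in TG2 and 28 in WT3, but 15 in TG1 and 18 in TG3. The WT mean includes each WT library, so the WT deviations of a gene balance out. These counts and medians are therefore not on the same footing in WT and TG libraries. Without TG2 the median log2 fold change of the 38 was -0.0019, with 18 positive and 20 negative, and none passed an unadjusted p under 0.05. TG2 is also the library with the largest sum of choroid plexus markers. With these markers as a covariate the median was -0.03, with 15 positive and 23 negative, and 10 of the 38 genes had the other sign. With TG3 alone for the TG group the median was -0.0036. The part of the markers was not tested. TG3, with a choroid plexus sum of 66.6 inside the WT range of 58.2 to 83.0, lay within the WT range for 17 of the 38 genes, above it for 11 and below it for 10. For all genes tested these shares were 54.9%, 23.3% and 21.8%.

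**Figure D4:**
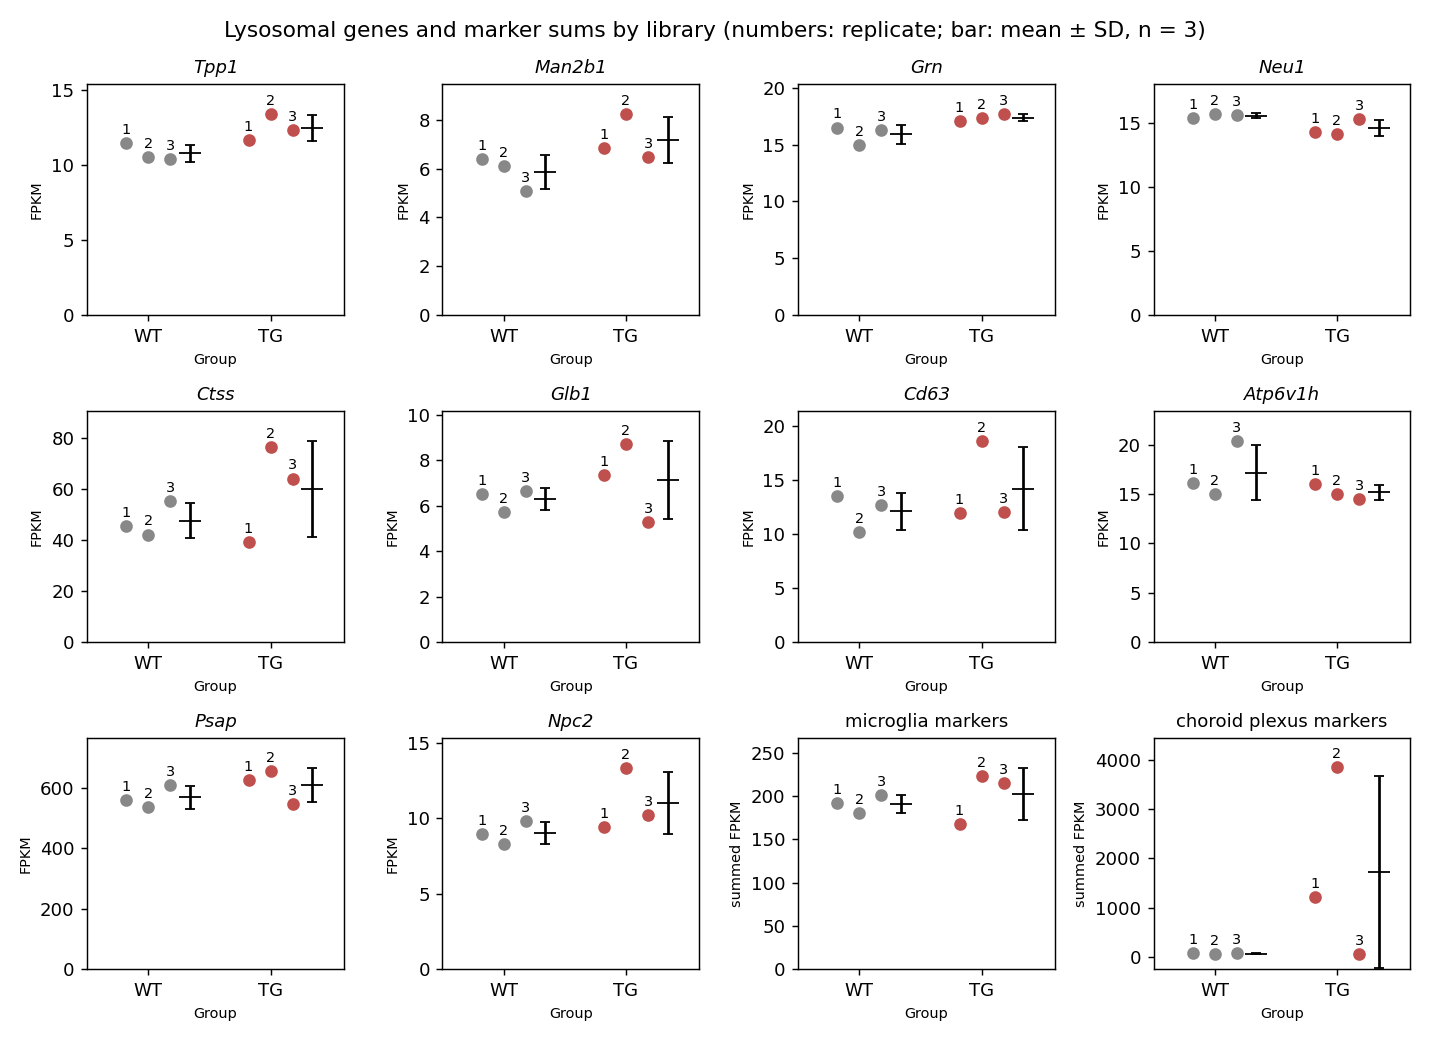
FPKM of 10 lysosomal genes and summed FPKM of the microglia and choroid plexus markers, by group, with points numbered by replicate and bars for the mean ± SD of 3 libraries. In Ctss the order of the TG libraries is that of the summed microglia markers (168, 224 and 215), though not of each single marker. Glb1 and Psap are highest in TG1 and TG2, the libraries with choroid plexus sums of 1221 and 3858.

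The 7 genes with the TFEB core had log2 fold changes from -0.11 for Atp6v0d1 to 0.16 for Ctsd, with a median of -0.04, 2 of them positive and 5 negative. The 25 genes with a promoter sequence and no core had a median of 0.06, 19 positive and 6 negative. None of the 7 passed an unadjusted p under 0.05, and their groups overlapped in every case. Tfeb itself, named here after its values were seen because its product binds the motif, had an FPKM of 1.76, 1.58 and 1.55 in WT and 1.08, 1.41 and 1.49 in TG. Its 3 TG values lay below the WT values, as in 5.71% of all genes tested, with a log2 fold change of -0.29 (95% confidence interval -0.67 to 0.09).

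A wider list of 106 other lysosomal genes was read in the same way, and 99 of them passed the filter on low values. Of these 99, 6 were higher in TG at an unadjusted p under 0.05 (6.06%, against 3.13% of all genes) and 0 were lower, and none passed after adjustment. With voom 10 were higher, where 3.96% of all genes were, and without TG2 the count was 1, where 2.16% of all genes were. With the choroid plexus markers as a covariate it was 0, against 1.58% of all genes. Their median log2 fold change was 0.07, with 65 positive and 34 negative. Every TG value was above every WT value in 15 (15.2%, against 6.35% of all genes). Every TG value was below every WT value in 5 (5.05%, against 5.71% of all genes). Among 33 other hydrolases 30 were positive, with a median of 0.16, and TG2 deviated most from the WT mean, by a median of 0.24. Among 15 other subunits of the proton pump 11 were negative, with a median of -0.11, and WT3 had a median deviation of 0.14 against -0.06 and -0.07 in WT1 and WT2. The median of the other hydrolases was 0.08 both without TG2 and without WT3, and that of the other pump subunits was -0.02 without WT3. In that fit 3 of the 15 other pump subunits were positive and 12 negative. Of 23 other membrane proteins 16 were positive, of 10 genes of enzyme sorting 8, and of 18 regulators 7. These splits between roles were not tested. In each sublist the gene with the smallest p on either side and the most abundant gene were read in full. Groups that lie apart are favoured by a choice on the smallest p.

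Ctsc, the dipeptidyl peptidase that activates serine proteases of immune cells, had 1.93, 1.53 and 1.96 in WT and 2.46, 3.11 and 2.23 in TG, a log2 fold change of 0.50 (limma, unadjusted p = 0.0189, adjusted p = 0.786). Its 3 TG values lay above the WT values, and TG2 was the highest. Dnase2a, an acid nuclease, had 0.923, 0.942 and 0.991 in WT and 0.762, 1.02 and 0.760 in TG, and Ids, the abundant iduronate sulfatase, had 106, 94.4 and 104 in WT and 109, 100.4 and 96.5 in TG. Both overlapped between groups. Among membrane proteins, Slc11a1, a metal ion transporter of phagocytes, had 0.555, 0.652 and 0.591 in WT and 0.750, 1.08 and 1.12 in TG, a log2 fold change of 0.62 (limma, unadjusted p = 0.0214, adjusted p = 0.786), on 38 to 75 reads in a library. Tmem175, an ion channel of the lysosome, and Laptm4b, the most abundant of these, had log2 fold changes of -0.11 and 0.01.

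Among the other pump subunits, Atp6v0a2 had 8.47, 8.91 and 7.47 in WT and 9.71, 9.63 and 9.12 in TG, so its TG values were all above WT. Atp6v0c, of the rotating ring of the pump, had 44.2, 44.5 and 49.6 in WT and 36.2, 43.2 and 42.2 in TG, all below WT, and the abundant Atp6v1g2 had 181, 184 and 193 in WT and 164, 166 and 177 in TG, also all below. The log2 fold changes of these 3 were 0.20, -0.19 and -0.14, and none passed an unadjusted p under 0.05. Igf2r, the receptor that sorts enzymes with mannose 6-phosphate tags to lysosomes and a holder of the TFEB core, had 4.75, 4.68 and 3.95 in WT and 6.31, 5.96 and 4.88 in TG. The groups lay apart for Igf2r, with a log2 fold change of 0.35 (limma, unadjusted p = 0.0281, adjusted p = 0.786). Gnptg, a subunit of the enzyme that makes those tags, and Sort1, a sorting receptor, had log2 fold changes of -0.14 and 0.10. Flcn, the folliculin that acts on lysosomal nutrient signalling, had 11.2, 12.2 and 10.6 in WT and 13.3, 13.3 and 13.4 in TG, a log2 fold change of 0.24 (limma, unadjusted p = 0.0159, adjusted p = 0.786). Rraga, a GTPase of the same pathway, had 78.5, 71.7 and 82.5 in WT and 68.6, 70.4 and 70.5 in TG, all below WT, with a log2 fold change of -0.15.

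Some members share reads or territory with other genes, and whether counting used strand is not stated. Of the 38, 14 overlap another gene with a mean FPKM of at least 0.1. Glb1 holds Tmppe (mean FPKM 3.18) within its bounds on the same strand, over 6172 bases. Ctsa overlaps Pltp (mean FPKM 20.6) by 1515 bases on the opposite strand, and Ctsb overlaps Fdft1 (mean FPKM 19.2) by 774. On the opposite strand, Manba, with a mean FPKM of 1.70, overlaps Oaz2-ps (mean FPKM 6.06) by 569 bases. Also on the opposite strand, Ppt1 overlaps Cap1 (mean FPKM 71.4) by 129 bases and Grn overlaps Fam171a2 (mean FPKM 37.2) by 68. The levels of the lysosomal genes that overlap another gene can include or lose reads from such neighbours.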

How the data were processed

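Hippocampal RNA of 3 WT and 3 TG mice was sequenced. Reads were assigned to genes with HTSeq by the authors, who deposited them as FPKM in 1 table with a column for each library, without pooling. The submitters' processing notes name GRCm38 (mm10). The aligner is not given in the sources used here, and whether reads were counted by strand is not stated. On extraction and library kit the sources differ: Trizol and NEBNext in the paper's methods, RNeasy and SMARTER in the labels.

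Multiplied by gene length, 100% of the FPKM values came out as whole reads in units of a library's step (tolerance 0.05 reads), so the reads behind each value are known. These reads entered 1 alternative (limma-voom). Floors from reads cover counting error only. The confidence intervals of the fold changes came from the limma standard errors, and so reflect the spread between libraries within the groups. All columns were used.

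Genes under a mean FPKM of 0.1 were left out, and 20952 remained. Log2(FPKM + 0.1) of 3 WT and 3 TG libraries was compared by limma 3.58.1 (R 4.3.3; lmFit, then eBayes with a trend), without covariate or block. P-values were adjusted by Benjamini-Hochberg, and the threshold was 0.05. Tests were two-sided. The comparison was tested on simulated libraries with 200 changed genes. With the changes placed in genes with a mean of at least 50 reads (20390 genes tested), 53 of 100 genes changed 2-fold and 100 of 100 changed 4-fold were called. With the changes placed where mean FPKM was 2 or more (20397 genes tested), a placement added after the recovery of the first was seen, 69 of 100 and 99 of 100 were called. In both, 0 were called in the wrong direction, and 18 unchanged genes were called, beside 153 and 168 changed genes. These counts hold for the simulated libraries, and recovery in the 6 real libraries was not tested. In the real libraries the 12 choroid plexus markers had a median log2 fold change of 2.80, and 0 of them passed the adjusted threshold. Fold changes on this scale understate changes of genes with low FPKM. P-values set the difference of the group means against the spread of these 6 mice within their groups, moderated over all genes tested.

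The 38 genes, their roles, the list of other lysosomal genes and the markers were chosen with earlier results of these data known. Every one of the 38 genes is named. Of each sublist of other lysosomal genes, the gene with the smallest p in each direction and the most abundant gene are named. Promoters came from RefSeq, and motifs and member coordinates are in GRCm38. Of the 38 gene identifiers, 36 had the same start and end in GENCODE M21. Alternatives changed the pseudocount, the filter, the variance model, the scaling and the libraries, or added a replicate block or a marker score as a covariate. Scripts ran in Python 3.11.15 with pandas 2.3.3 and matplotlib 3.10.9.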

Additional observations from a re-analysis of the deposited data

How the results depend on the processing

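None of the 38 lysosomal genes passed the adjusted threshold under any of the 18 alternatives run, with 3 libraries per group or fewer. Over the whole table, 1 gene was higher and 1 lower at an adjusted p under 0.05 with limma. Both counts were 0 with a pseudocount of 1 or 0.01, with no filter, with equal summed FPKM, with voom, with the replicate block, with either covariate and with TG3 alone. The higher count was 0 with a filter at a mean FPKM of 1, and the counts were 6 and 3 with no variance trend. Leaving out 1 library gave 0 to 6 higher (6 without TG1) and 0 lower.

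Lysosomal genes higher at an unadjusted p under 0.05 numbered 1 with all libraries. The share of all genes tested was 3.13%. They numbered 0 with no variance trend (2.95% of all genes) and with the choroid plexus covariate (1.58%). Equal summed FPKM gave 3 (Grn, Npc2 and Tpp1, against 3.53% of all genes) and voom 2 (Man2b1 and Tpp1, against 3.96%). With 1 library left out they numbered 0 to 6. There were 6 without TG1 (Ctsh, Ctss, Ctsz, Laptm5, Npc2 and Tpp1, against 2.52% of all genes) and 2 without TG3 (Glb1 and Man2b1, against 2.82%). There were 0 without WT2, WT3 or TG2 (2.93%, 2.14% and 2.16% of all genes). Genes whose groups lay apart numbered 3 higher and 1 lower. They were 7 and 0 with equal summed FPKM (6.91% and 4.77% of all genes), 0 lower with quantile normalization (6.84%), 11 and 10 with TG3 alone (23.3% and 21.8%), and 3 to 9 higher and 1 to 5 lower with 1 library left out, where 9 were higher without TG1 (11% of all genes) and 5 lower without TG2 (10.9%). The median log2 fold change was -0.0019 to 0.07 with 1 library left out.

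Other lysosomal genes higher at an unadjusted p under 0.05 numbered 6 of 99 (6.06%, against 3.13% of all genes). They were 10 with voom (3.96% of all genes) and 0 with the choroid plexus covariate (1.58%). With 1 library left out they were 1 to 6, with 1 without TG2 (2.16% of all genes) and 3 without WT3 (2.14%). Lower ones numbered 0, where 2.78% of all genes were lower. They were 2 with the microglia covariate (3.53% of all genes) and 0 to 2 with 1 library left out (2 without WT2, against 3.42%). The causes were not tested, other than the fewer libraries of the left-out fits.

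At an unadjusted p under 0.05, 656 genes of the table were higher and 582 lower, against 740 and 454 with equal summed FPKM and 829 and 487 with voom. The same-numbered libraries of the groups did not deviate together (correlations of 0.0125, 0.0434 and 0.0031), and nothing says that a number marks a shared litter. With the replicate block, 1 lysosomal gene was higher at an unadjusted p under 0.05, Man2b1 in place of Tpp1, where 3.03% of all genes were. With 3 libraries per group, the median standard error of the 38 log2 fold changes was 0.107, and a 3-read floor limits genes under an FPKM of about 0.2, none of them among the 38.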
